A study of Solanum phureja with 20 samples.

Results

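F3H and FLS, enzymes of flavonol synthesis, were followed over the 4 lines of a potato ploidy series. The members were the array spots whose only symbol in the probe annotation is F3H or FLS. They were 10 of 32448 spots, 2 for F3H and 8 for FLS. Read as duplicate spots, they made up 5 of 15360 printed clones, 1 of F3H (gene ID 102577463; ESTs BQ115484 and BQ115485) and 4 of FLS (gene ID 102577717). The FLS clones are kept apart and named here by their ESTs (end-sequence reads of a clone): FLS-BQ120280, FLS-BQ515404, FLS-BQ516726 and FLS-BQ517633.

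F3H, flavanone 3-hydroxylase, adds a hydroxyl group to flavanones such as naringenin and so makes dihydroflavonols. FLS, flavonol synthase, turns dihydroflavonols into flavonols such as kaempferol and quercetin. Both belong to the 2-oxoglutarate-dependent dioxygenases, which need ferrous iron, and dihydroflavonols are also the branch point towards anthocyanins. In leaves, flavonols are best known as ultraviolet screens in the outer cell layers, and in Arabidopsis roots as compounds that affect auxin transport. Other genes of the phenylpropanoid and flavonoid routes were looked up by 18 symbols, and 0 of them were single symbols in the annotation, so the pathway around the pair is not described here.

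The plants carry copies of one Solanum phureja-derived genome, doubled from a monoploid with 12 chromosomes. The monoploid is 1x, the diploid lines are 2xR3 and 2xR5, and the tetraploid is 4x, each a single line of the O37 series. The lines differ in ploidy and in their history of doubling, and a line's ploidy cannot be told apart from anything else particular to it. Setting both diploids side by side shows only how far lines of equal ploidy differ. Each line's leaf RNA was taken from growing leaflets of 6 plants, 20 days after planting. Root tips were taken at 7 days, and their RNA was amplified before labelling. The labels give genotype as the treatment and no other. Each array compared 1 line labelled with Cy3 with another labelled with Cy5, so a value is a log2 ratio between lines within one tissue. No array holds both tissues, so the labelled tissue could not be checked against marker levels and no level was compared between leaf and root. A ratio is also relative to the other clones, and in these bulk samples fewer cells that use a gene cannot be told apart from less of its RNA per cell.

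In leaf, replicates 1 and 2 were closed loops of 4 arrays, from which a level of each line was solved relative to the mean of the 4 lines. Replicate 3 held a dye-swapped pair of arrays for 1x with 4x and another for 2xR3 with 2xR5. In root, replicates 4 and 5 were closed loops. The labels call the replicates biological without naming the plants behind each, and a p-value here speaks only of the spread among these RNA samples. An array held 12403 to 18629 spots with a value, array medians lay between -0.013 and 0.014, and no spot intensities were used here. The number of replicates limits the precision, with 3 in leaf and 2 in root, spread over 12 and 8 arrays. All signs below rest on reading the deposited ratio as Cy5 over Cy3. The labels do not state it, it is the likely reading, and the reverse would turn every sign.

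F3H and FLS were picked for their leaf ploidy differences, so the leaf values for 4x, the diploids and 1x are given as a description, with no test. F3H had a value on 12 of 12 leaf arrays. In replicate 1 its log2 level was -0.18 in 1x, 0.69 in 2xR3, 0.64 in 2xR5 and -1.14 in 4x. In replicate 2 it was 0.20 in 1x, 0.47 in 2xR3, -0.05 in 2xR5 and -0.61 in 4x. The tetraploid was the lowest line in both loops and lay apart from the other lines, while 1x lay below both diploids in replicate 1 and between them in replicate 2.

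Against 1x, F3H in 4x stood at log2 differences of -0.96, -0.82 and -1.14 in the 3 replicates, a mean of -0.97 ± 0.16 (SD, n = 3) or 1.96-fold lower. All 3 replicates put 4x below 1x, and their spread was small beside the difference. Against the mean of the diploids it stood at -1.80 and -0.82 in the loops, -1.31 ± 0.69 (SD, n = 2), or 2.48-fold lower. This difference was more than 1.5 times larger in replicate 1 than in replicate 2. The diploids stood 0.84 above 1x in replicate 1 and 0.004 above it in replicate 2, so their distance from 1x rests on replicate 1. Against the mean of 1x and 4x the diploids stood at 1.32 and 0.41, again on the same side but unequal in size.

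FLS-BQ120280 (ESTs BQ120280 and BQ120281) gave the FLS values most like those of F3H. In replicate 1 its log2 level was 0.14 in 1x, 0.33 in 2xR3, 0.67 in 2xR5 and -1.14 in 4x. In replicate 2 it was 0.02 in 1x, 0.15 in 2xR3, 0.64 in 2xR5 and -0.81 in 4x. Both loops gave the same order, 2xR5 highest, then 2xR3, 1x and 4x, and 4x lay apart from the rest. The smallest step of the order was that between 2xR3 and 1x in both loops.

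Against the mean of the diploids, FLS-BQ120280 in 4x stood at -1.64 and -1.20, a mean log2 difference of -1.42 ± 0.31 (SD, n = 2) or 2.67-fold lower. Against 1x it stood at -1.28, -0.82 and -0.22, -0.77 ± 0.53 (SD, n = 3). The sign was the same in all 3 replicates, but the sizes differed, and replicate 3 gave the smallest value. Without replicate 3 the mean was -1.05, and without replicate 1 it was -0.52. The diploids stood 0.36 and 0.38 above 1x.

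**Figure D1:**
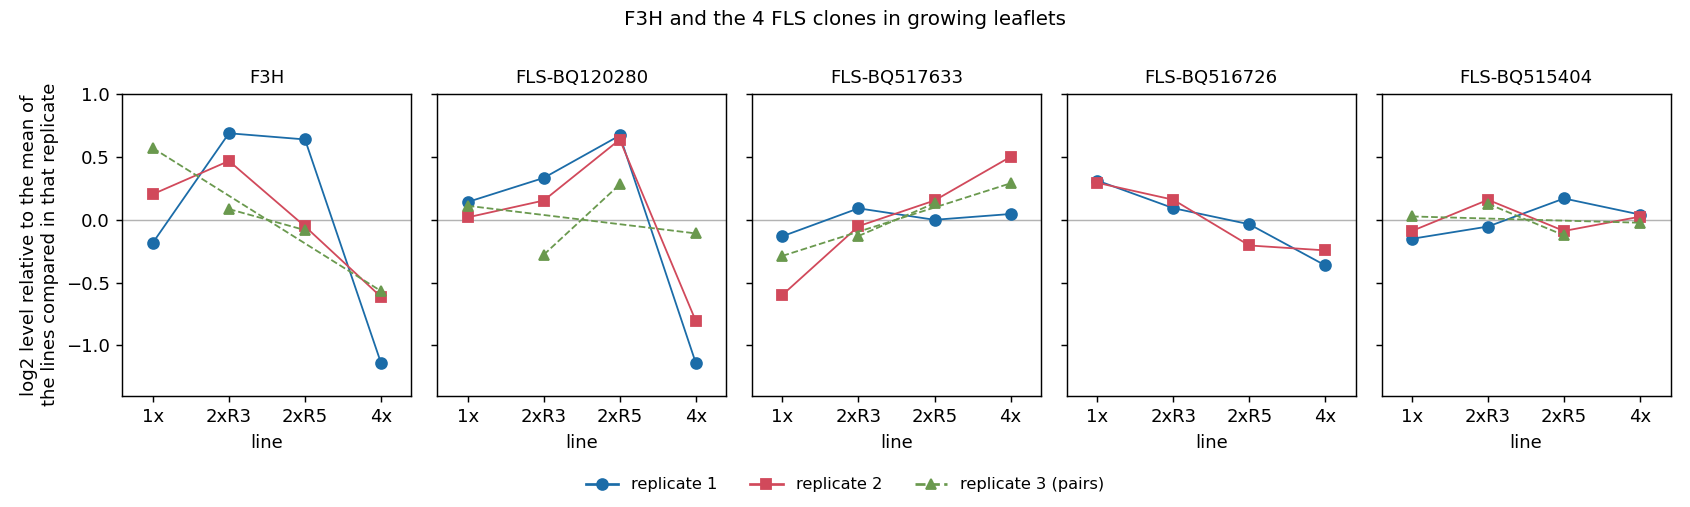
Log2 level of F3H and of each FLS clone in growing leaflets (vertical axis, relative to the mean of the lines compared in that replicate) in the lines 1x, 2xR3, 2xR5 and 4x. Each point is 1 RNA sample, solid lines join the 4 lines of a loop (replicates 1 and 2) and dashed lines join a dye-swapped pair (replicate 3). F3H and FLS-BQ120280 are lowest in 4x in both loops (-1.14 and -0.61, and -1.14 and -0.81), FLS-BQ517633 is lowest in 1x, and FLS-BQ515404 stays near 0.

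FLS-BQ517633 went the other way. Its log2 level in 1x, 2xR3, 2xR5 and 4x was -0.13, 0.09, -0.0017 and 0.04 in replicate 1, and -0.60, -0.05, 0.15 and 0.50 in replicate 2. The monoploid was the lowest line in both loops, and the other lines lay within 0.1 of one another in replicate 1 and spread out in replicate 2. In 4x against 1x the clone stood at 0.18, 1.10 and 0.58, a mean of 0.62 ± 0.46 (SD, n = 3), higher in 3 of 3 replicates. Replicate 2 gave the largest of these, and without it the mean was 0.38. Against the diploids 4x stood at 0.0005 and 0.45, so replicate 1 showed no step between them.

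FLS-BQ516726 had values only in the leaf loops, on 8 of 12 arrays. Its log2 level in 1x, 2xR3, 2xR5 and 4x was 0.31, 0.09, -0.04 and -0.36 in replicate 1, and 0.29, 0.16, -0.21 and -0.24 in replicate 2. Both loops placed the lines in the order 1x, 2xR3, 2xR5, 4x from high to low, with 2xR5 and 4x nearly level in replicate 2. The tetraploid stood at -0.67 and -0.54 against 1x, -0.61 ± 0.10 (SD, n = 2), and the diploids at -0.28 and -0.32. On the second spot alone, which has no value on 1 array of replicate 1 and so leaves that loop open, these means were -0.17 and 0.10.

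FLS-BQ515404, with a value on 11 of 12 leaf arrays, separated the lines least. In 4x against 1x it stood at log2 differences of 0.19, 0.11 and -0.05, a mean of 0.09 ± 0.12 (SD, n = 3). No sign was shared by the 3 replicates. Its levels in the loops lay between -0.15 and 0.17, and the order of the lines differed between the loops. The ratios of this clone leaned towards Cy5 whichever line carried it, with a mean log2 ratio of 0.58 over the 4 arrays of replicate 1 and 0.42 in replicate 2. Such a mean cancels in a closed loop, and in the leaf loops the other clones had means of -0.10 to 0.36.

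The FLS clones thus did not share a leaf pattern. Averaged within each loop, FLS stood at -0.22 in 4x against 1x, a value lower in size than FLS-BQ120280 and FLS-BQ516726 and opposite in sign to FLS-BQ517633 and to the mean of FLS-BQ515404. The annotation gives all 4 clones the same gene ID. The clones' sequences were not used here, so how alike they are, and how far each hybridises with RNA of related genes, was not tested.

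The duplicate spots of a clone gave the same picture for F3H and FLS-BQ120280. Over the leaf arrays the spots correlated at r = 0.968 for F3H (12 arrays) and r = 0.991 for FLS-BQ120280 (11 arrays). The mean distance between spots was 0.20 and 0.10 on the log2 scale. Over all clones in leaf the median of the single distances was 0.12, which is not a mean per clone. F3H had 1 array on which its spots parted, by 0.67, in the pair of 2xR3 with 2xR5. For FLS-BQ517633 the spots correlated at 0.815 over 11 arrays with a mean distance of 0.24. FLS-BQ516726 had r = 0.896 over 7 arrays with a mean distance of 0.15, and FLS-BQ515404 r = 0.769 over 11 with 0.16. Both distances were below that of F3H, although r was lower.

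**Figure D2:**
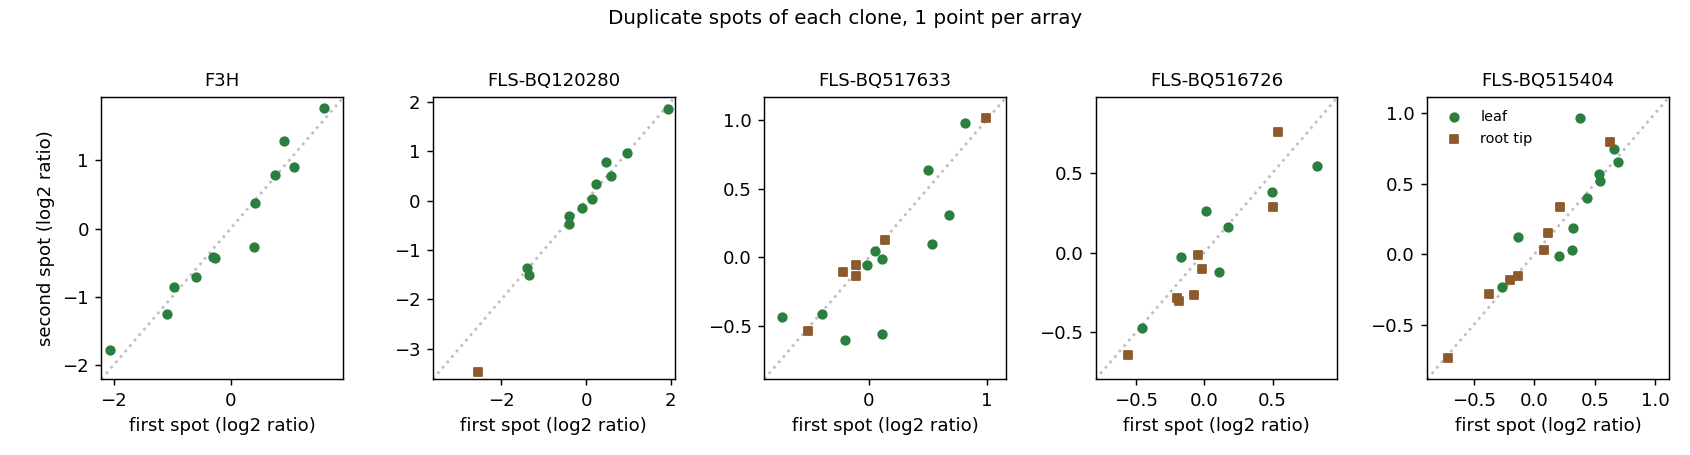
First spot (horizontal) against second spot (vertical) of each clone, as log2 ratios, with 1 point per array (circles leaf, squares root tip) and a dotted line of equality. Points lie close to the line for F3H and FLS-BQ120280 in leaf (r = 0.968 and 0.991) and scatter more for FLS-BQ517633 in leaf (r = 0.815); the FLS-BQ120280 root point lies off the line by 0.918.

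Set among the 6001 clones with a value on every leaf array, F3H and FLS-BQ120280 lay next to each other near the bottom in 4x against the diploids. In the limma estimate, which also draws on the 1x with 4x pair of replicate 3, F3H stood at -1.35 and was the 3rd lowest, and FLS-BQ120280 stood at -1.28 and was the 4th lowest. The median of all 6001 clones was 0.01 and the median size of a difference 0.10. FLS-BQ517633 stood at 0.21, inside the bulk, where 18.5% of clones had a difference at least as large. In 4x against 1x F3H was the 22nd lowest, FLS-BQ120280 the 62nd lowest and FLS-BQ517633 the 87th highest. In the diploids against the mean of 1x and 4x FLS-BQ120280 was the 7th highest and F3H the 10th highest. These places describe members that were chosen by such values.

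**Figure D3:**
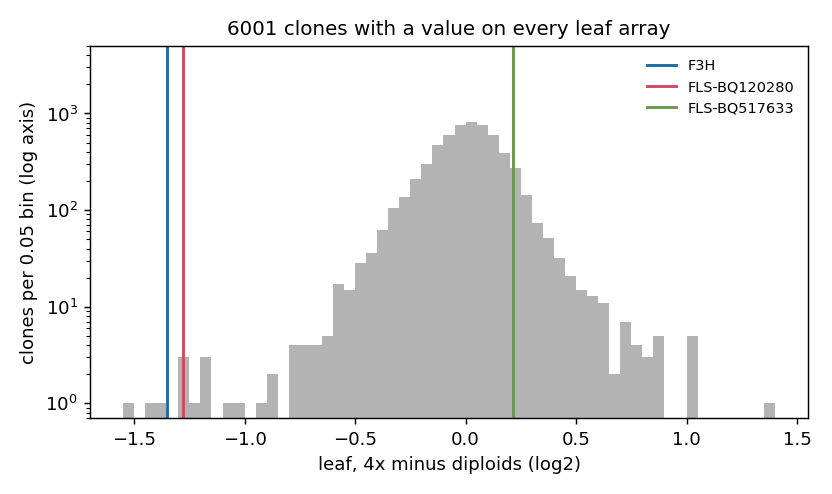
Number of clones (vertical, log axis) by the leaf log2 difference of 4x minus the mean of the diploids (horizontal), for the 6001 clones with a value on every leaf array. Coloured lines mark F3H at -1.35 and FLS-BQ120280 at -1.28, in the far lower tail, and FLS-BQ517633 at 0.21, within the bulk.

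Array by array, F3H and FLS-BQ120280 mostly went the same way. Both were picked for their leaf ploidy differences on these same arrays, so their likeness is a description and no separate support. Over the 12 leaf arrays their log2 ratios correlated at Pearson r = 0.767 (Spearman rho = 0.706) and had the same sign on 10. The arrays of a replicate share RNA samples, and both clones lie on the same arrays, so these are not 12 separate observations. In the loops alone r was 0.879 over 8 arrays, while over the 4 arrays of replicate 3 it was 0.243. Among the 6000 other clones, FLS-BQ120280 ranked 72 in likeness to F3H, and F3H ranked 130 in likeness to FLS-BQ120280. FLS-BQ517633 correlated with F3H at r = -0.380 and with FLS-BQ120280 at r = -0.070.

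**Figure D4:**
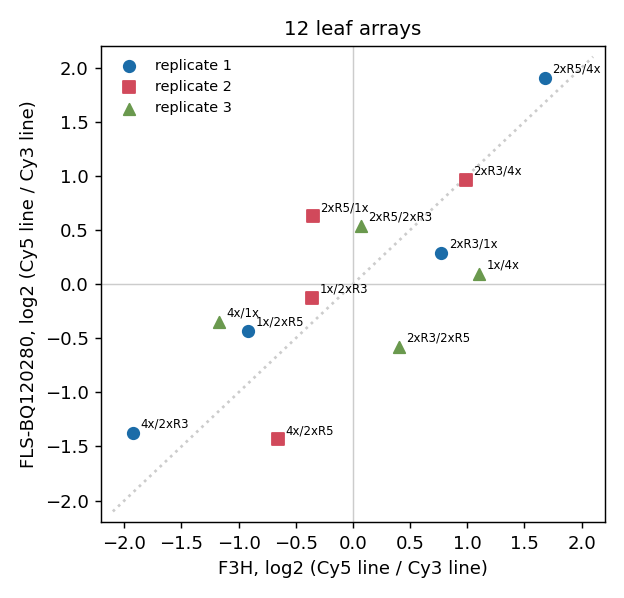
Log2 ratio of F3H (horizontal) against that of FLS-BQ120280 (vertical) on each of the 12 leaf arrays, labelled by the Cy5 line over the Cy3 line, with symbols for replicates. The arrays that compare 4x with a diploid form both ends of the cloud, and r is 0.767 over all 12 arrays.

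The named genes most like F3H over the 12 leaf arrays, by Pearson r, were LOC102577461 (0.832), LOC102601295 (0.832), LOC102606273 (0.829), LOC102598069 (0.808) and LOC102577581 (0.807). For FLS-BQ120280 they were LOC102577835 (0.940), LOC102577458 (0.921), PSBR (0.910), LOC102598069 (0.909) and LOC102601295 (0.906). LOC102598069 and LOC102601295 stood in both lists. For FLS-BQ517633 they were VPE2 (0.906), LOC102577429 (0.900), SRE1A (0.900), LOC102586427 (0.893) and LOC102588091 (0.886), none of which was in the other lists. VPE2 is named as a vacuolar processing enzyme, a cysteine protease. Only clones with a single symbol could be named, and the first gene of the F3H list ranked 20 among all clones.

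PSBR, a subunit of photosystem II and used here as a marker of green tissue, lay on the same side as F3H and FLS-BQ120280. Of the photosynthesis gene symbols searched, PSBR alone had clones with a value on every leaf array. It was also listed above as like FLS-BQ120280 on these same arrays, so its leaf calls are a description and no separate support. Of its 6 clones on the arrays, 2 had a value on every root tip array, so they are not read in green tissue only. In leaf 2 were measured throughout. They stood at log2 differences of -0.38 and -0.36 in 4x against the diploids, and 1 of 2 passed (limma, adjusted p = 0.042), against 3.30% of all clones. That call was lost after scaling of the arrays, on the second spot alone, under the 75% rule and without replicate 1 or 2, while 2 of 2 passed in the array-level fit and without replicate 3. In 4x against 1x the PSBR clones stood at -0.26 and -0.21 and 0 of 2 passed (limma, lowest adjusted p = 0.054), where 39.8% of all clones did, and 2 of 2 passed without replicate 3. Any part of green tissue in the flavonoid values was not tested.

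The difference between the diploid lines, which did not choose the members, was tested. FLS-BQ120280 was higher in 2xR5 than in 2xR3 by 0.34, 0.48 and 0.56 in the 3 leaf replicates, a mean of 0.46 ± 0.15 (SE, n = 3; limma, unadjusted p = 0.011), higher in 3 of 3. It was the 28th highest of 6001 clones but did not pass over all clones (limma, Benjamini-Hochberg adjusted p = 0.476). F3H stood at -0.05, -0.52 and -0.17, a mean of -0.25 (95% interval -0.65 to 0.16; limma, adjusted p = 0.698), lower in 3 of 3. FLS-BQ517633 stood at 0.12 (limma, adjusted p = 0.791). Here 0 of the 3 members tested passed in limma, as did 0 of 6001 clones (0%), of which 518 had an unadjusted p under 0.05. FLS-BQ515404 had a value on 1 of the 2 arrays of replicate 3, at -0.25, so its dye effect does not cancel there. Under the 75% rule (clones with a value on at least 75% of arrays) the clone stood at -0.09 (limma, adjusted p = 0.792). FLS-BQ516726 stood at -0.13 and -0.36 in the loops and was not tested. The solved values of F3H and FLS-BQ120280 therefore had opposite signs between the diploids in every replicate. For F3H replicate 1 gave only -0.05. In replicate 3 its dye-swapped arrays disagreed on the direction, at 0.07 for 2xR5 over 2xR3 and 0.40 for 2xR3 over 2xR5. Their mean of 0.23, a dye effect, was larger than the difference, and on the first array the F3H spots parted by 0.67. In the loops 4x was the lowest line of both clones. The difference between the 2 clones was not tested.

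In root tips F3H had a value on 0 of 8 arrays. The sources used here do not say why a value is missing, so this is no statement that F3H RNA was absent. FLS was measured by all 4 clones, FLS-BQ515404 and FLS-BQ516726 on 8 of 8 arrays, FLS-BQ517633 on 6 and FLS-BQ120280 on 2.

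FLS-BQ515404 and FLS-BQ516726 followed each other in root tips. In replicate 4 the log2 levels in 1x, 2xR3, 2xR5 and 4x were -0.21, -0.08, 0.50 and -0.21 for FLS-BQ515404. For FLS-BQ516726 they were -0.11, -0.10, 0.45 and -0.24. In both clones 2xR5 lay apart above the other lines.

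In replicate 5 the levels in the same order were -0.20, 0.08, -0.10 and 0.22 for FLS-BQ515404. For FLS-BQ516726 they were -0.15, 0.06, -0.17 and 0.26. Here 4x was highest in both clones, followed by 2xR3. The clones shared their highest line within a replicate, the lower lines changed places between them, and the highest line differed between the replicates. Over the 8 root arrays the 2 clones correlated at r = 0.968, with a mean distance of 0.09 on the log2 scale, against r = -0.027 over the 8 leaf loop arrays. The points share arrays and RNA samples, and no test was made of the difference.

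Neither of these clones passed in any of the 5 root comparisons. In the diploids against 1x FLS-BQ515404 stood at 0.31 ± 0.20 (SE, n = 2; limma, adjusted p = 0.237) and FLS-BQ516726 at 0.19 ± 0.21 (limma, adjusted p = 0.486). In 4x against 1x they stood at 0.21 (95% interval -0.34 to 0.77) and 0.14 (-0.44 to 0.73). The intervals are wide, as the replicates gave 0.0005 and 0.43 for the first clone and -0.12 and 0.41 for the second. Of all 8245 clones 45.3% passed in the diploids against 1x and 30.1% in 4x against 1x, so 0 of 2 says little of FLS. In the diploids against the mean of 1x and 4x 0 of 2 passed, at 0.20 and 0.12, where 20.1% of all clones did. In 4x against the diploids and in 2xR5 against 2xR3 0 of 2 and 0% of all clones passed in limma, with 582 and 301 of 8245 at an unadjusted p under 0.05.

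FLS-BQ517633 could be tested in root tips only in the fit that admits clones with a value on at least 75% of arrays, and its 1x level there comes from 1 RNA sample. In replicate 5 its log2 level was -0.57 in 1x, 0.01 in 2xR3, 0.39 in 2xR5 and 0.18 in 4x. In replicate 4 neither array with 1x had a value, and 2xR3, 2xR5 and 4x stood at -0.06, -0.01 and 0.07 relative to their own mean. The monoploid lay below the other lines where it was measured, as it did in the leaf loops. In that fit it stood above 1x in 4x by 0.79 ± 0.14 (SE; limma, Benjamini-Hochberg adjusted p = 0.020) and in the diploids by 0.74 ± 0.12 (limma, adjusted p = 0.012). The lone 1x sample is taken to vary like the other samples, and replicate 5 alone gave 0.74 and 0.76. With 1 of 3 FLS clones passing, the share of all 8903 clones was 27.2% in 4x against 1x and 42.2% in the diploids against 1x, so the calls are no result particular to FLS. Both calls were lost when the arrays were scaled to a common spread, at 0.58 (limma, adjusted p = 0.128) and 0.51 (limma, adjusted p = 0.099). In the other fits tried that gave a test, limma's adjusted p ran from 0.016 to 0.029 in the first comparison and from 0.0048 to 0.018 in the second. The diploids against the mean of 1x and 4x stood at 0.35 (limma, adjusted p = 0.057), where 17.1% of all clones passed, and 4x against the diploids at 0.04 (limma, adjusted p = 0.973).

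FLS-BQ120280 gave the largest root difference of the members, on few values. It was measured on 2 arrays of replicate 5, those that compare 1x with 2xR3 and with 2xR5. The log2 difference from 1x was 3.01 for 2xR3 and 3.37 for 2xR5, a mean of 3.19 or 9.14-fold higher in the diploids. The 1x RNA carried Cy5 on the first array and Cy3 on the second, and both arrays put it far below the diploid. The arrays of replicate 5 that set the same diploid RNA against 4x gave no value for this clone. Neither did any array of replicate 4. So 4x has no value, there is no replicate, and no test was made. On the first array the 2 spots differed by 0.918, and on the second only 1 spot had a value. Of 8920 clones measured on both arrays, 81 (0.908%) stood at or above this difference and 0 at or below its negative. In leaf the diploids stood only 0.36 and 0.38 above 1x for the same clone.

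**Figure D5:**
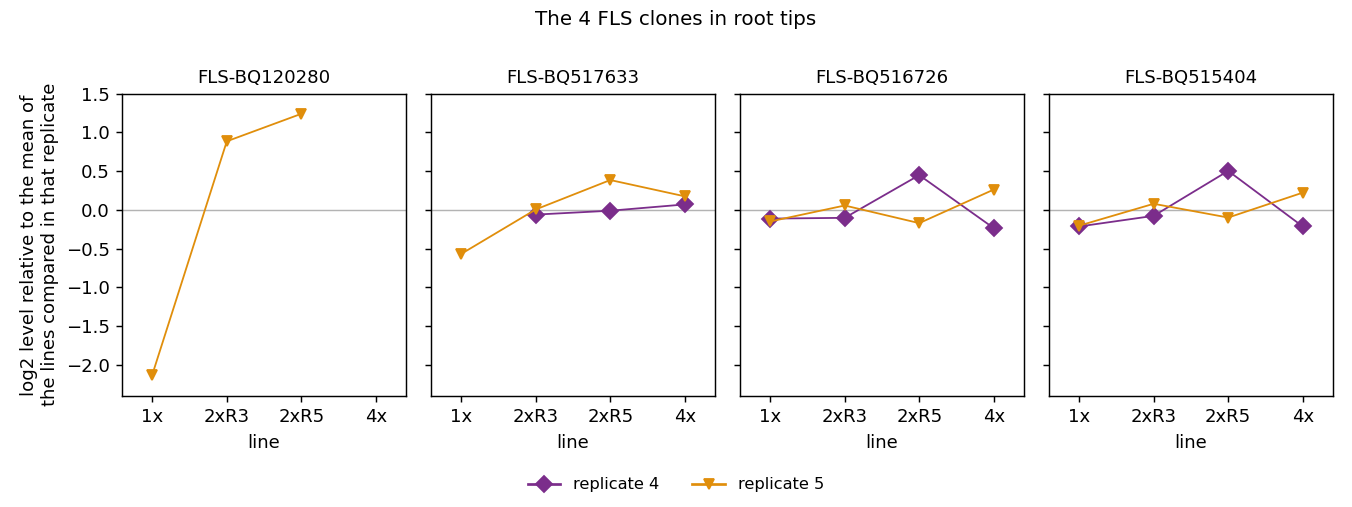
Log2 level of the 4 FLS clones in root tips (vertical axis, relative to the mean of the lines measured in that replicate) in 1x, 2xR3, 2xR5 and 4x, with 1 point per RNA sample and lines joining the lines of a replicate. FLS-BQ120280 has values in replicate 5 only (1x at -2.13), FLS-BQ517633 is lowest in 1x (-0.57), and FLS-BQ515404 and FLS-BQ516726 lie close to each other within a replicate, with 2xR5 highest in replicate 4 and 4x highest in replicate 5.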

How the data were processed

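Each deposited value is the log2 ratio of a spot's channels, per the authors' value table. The submitters' processing notes name limma, while its version and the background and within-array methods are not given in the sources used here. All of them (100%, within 0.002) matched the log2 of some 2-decimal ratio. The members and lists were chosen with earlier results of these data known.

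Duplicate spots were paired by the print layout, which was inferred from annotated pairs, and averaged. Each loop was solved by least squares, so that a dye effect of a clone cancels. Solved levels entered a limma fit (version 3.58.1, R 4.3.3), with line as the factor and replicate as a block, over clones with a value on every array of a tissue (6001 in leaf, 8245 in root). In leaf replicate 3 each pair was its own block. The threshold was a Benjamini-Hochberg adjusted p of 0.05 over those clones. The script was tested on simulated data. The replicate numbers pair the samples, because every ratio was measured inside 1 replicate.

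Genes alike in pattern were the 5 single-symbol genes with the highest Pearson r over the leaf arrays. The annotation gave 1 symbol for 1630 spots. Alternatives were scaled arrays, each spot alone, an array-level fit, the 75% rule, robust eBayes, each replicate left out and FLS clones averaged. No promoter, protein or clone sequence was used here.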

Additional observations from a re-analysis of the deposited data

Results flagged for a closer look

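For FLS-BQ516726 the difference between the diploids and 1x had opposite signs in leaf and root tips. It stood at -0.28 and -0.32 in the leaf loops and at 0.09 and 0.29 in the root loops, and the leaf mean minus the root mean was -0.49 on the log2 scale. Every replicate of each tissue showed its own sign, and the difference between tissues was not tested. The root sign belongs to the mean of the diploids and not to each line. In root replicate 4 2xR3 was level with 1x (-0.10 and -0.11), and in replicate 5 2xR5 lay slightly below 1x (-0.17 and -0.15). The root value did not pass (0.19, 95% interval -0.32 to 0.70, limma, adjusted p = 0.486). The item was found by scanning every member and comparison for such signs, with few replicates in each tissue. On the second spot alone the leaf mean was 0.10.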

How the results depend on the processing

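Averaging the FLS clones gave -0.22 in leaf 4x against 1x, -0.38 against the diploids and 0.16 in the diploids against 1x, which turned the sign of FLS-BQ517633 in the first and second, of FLS-BQ515404 in the first and of FLS-BQ516726 in the third. On the second spot alone FLS-BQ516726 stood at -0.17 and 0.10 (4x and diploids against 1x), where a missing value opens the loop and the dye effect no longer cancels, and FLS-BQ515404 at 0.041 in 4x against the diploids. On the first spot alone FLS-BQ516726 stood at 0.024 in root 4x against the diploids and FLS-BQ515404 at -0.019 in leaf 4x against 1x. In root, where the replicates of FLS-BQ515404 and FLS-BQ516726 differ in sign, leaving 1 out also turned signs: without replicate 4 the clones stood at 0.23 and 0.32 in 4x against the diploids, -0.02 and -0.11 in the diploids against the mean of 1x and 4x and -0.18 and -0.23 in 2xR5 against 2xR3, and without replicate 5 FLS-BQ516726 stood at -0.12 in 4x against 1x. F3H and FLS-BQ120280 kept their signs in every alternative run, but without replicate 1 F3H stood at only 0.004 in the leaf diploids against 1x, which is no difference. After scaling of the arrays the clones passing in root numbered 185 against 2481 (4x against 1x), 712 against 3735 (diploids against 1x), 13 against 0 (4x against diploids) and 162 against 1655 (diploids against the mean of 1x and 4x), and the cause was not tested. In the array-level fit with no replicate block they were 5 and 3655 in the last pair of comparisons, and 1 passed on the first spot alone in root 4x against the diploids. Leaf 2xR5 against 2xR3 gave 0 to 4 clones when 1 replicate was left out, 4 without replicate 3.

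Alternatives for FLS-BQ517633 in root under the 75% rule were chosen after seeing the data. Scaling gave 0.58 in 4x against 1x and 0.51 in the diploids against 1x, neither past the threshold. The fit with no replicate block gave 0.36 in the diploids against the mean of 1x and 4x (limma, adjusted p = 0.014, against 0.055 to 0.252 in the other tested alternatives). Without replicate 4 the values ran from -0.021 in 4x against the diploids to 0.38 in 2xR5 against 2xR3 and 0.76 in the diploids against 1x. With 2 root loops, leaving one out leaves no residual degrees of freedom, so those values have no test. Signal over background was not analysed here.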
